A study of Mus musculus with 19 samples.

Results

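The ADAMTS proteins are secreted enzymes of the extracellular matrix, and 7 of their genes were followed here through the culture of mouse hepatic stellate cells (HSCs). The genes were taken by name, with earlier results of these data known: the proteases Adamts1, Adamts2, Adamts4, Adamts5, Adamts9 and Adamts12, and Adamtsl2, an ADAMTS-like protein. All 7 were among the 55487 genes of the count table, and all 7 were among the 15138 genes that passed the filter on low counts. HSCs had been sorted by the ultraviolet fluorescence of their vitamin A from healthy male Balb/c mice of 23 to 24 weeks, untreated, and either lysed at once (0 h) or kept on collagen-coated plastic in medium with 10% serum. Fresh medium was given after 3 h and again after 24 h, so time past these points cannot be told apart from the change of medium. The 19 samples were 3 each at 3, 6, 12, 18 and 96 h and 2 each at 0 and 24 h. The labels number them M1, M2 or M3, without saying what the letter stands for, and give an isolation date, the same for M1 and M3 and another for M2. The 0 h samples were M2 and M3 and the 24 h samples M1 and M2. No animal was injured, the culture itself being the model of activation, and each sample joined 2 technical repeats.

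An ADAMTS protease carries a signal peptide, a pro-domain that convertases remove, a zinc-binding catalytic domain and a tail of thrombospondin type 1 repeats that holds it in the matrix. Adamts1, Adamts4, Adamts5 and Adamts9 cut the large proteoglycans versican and aggrecan, Adamts2 removes the amino-terminal propeptide of fibrillar procollagens, and Adamts12 cuts cartilage oligomeric matrix protein. ADAMTS-like proteins have the repeats without the catalytic domain, and Adamtsl2 binds fibrillin microfibrils and latent TGF-beta binding protein. HSCs are the main matrix-producing cells of the liver and turn into myofibroblasts on injury or on plastic.

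Levels are given as CPM, read counts scaled to a common library total after TMM scaling, which corrects the totals for composition. Totals lay between 2073171 and 7690892 counts, with a median of 4954915, so that 3 counts, the smallest level taken as shown, stood for 0.386 to 1.51 CPM. Each read marks the 3′ end of a transcript, and levels are compared between times within a gene, not between genes. A gene was called where edgeR's quasi-likelihood F test gave an adjusted p below 0.1 over all genes tested and the fold change was above 2. The 10 HSC markers summed to 30570 to 35330 CPM at 0 h and to 2663 to 3054 CPM at 96 h, where Ngfr was at 0. Markers of other liver cells were also present at 0 h, at 3706 to 7890 CPM for 10 hepatocyte genes, 777 to 1139 CPM for 10 genes of sinusoidal endothelium and 398 to 403 CPM for 10 genes of Kupffer cells and leukocytes. At 96 h these sums were 24.8 to 93.2, 13.1 to 231 and 23.3 to 46.2 CPM. Low genes dropped out of single libraries, and 0.541% to 5.4% of the genes at 20 CPM or more in the other samples of a time were at 0 in a given library.

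The family did not move as a block. Adamts4 rose early and then nearly disappeared, Adamts12 rose from almost nothing, Adamts5 fell and came back at 96 h, Adamtsl2 was lost, and Adamts2 was called in no pairwise comparison. Every member differed among the 7 times (7 of 7, beside 27.4% of all genes tested), with adjusted p from 1.15e-06 for Adamts4 to 0.0751 for Adamts2. As the members were chosen with earlier results of these data known, this count describes them and not the family. Of 13 other ADAMTS and ADAMTS-like genes tested, only Adamts10, Adamts13 and Adamtsl4 passed this test. Of the 42 tests of a member against 0 h, 17 were called, 5 higher and 12 lower. The shares of all genes called follow for each time, both directions together, so the split by direction has no share beside it.

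Against 0 h, the members called numbered 2 of 7 at 3 h (5.58% of all genes tested), 3 of 7 at 6 h (11.3%), 2 of 7 at 12 h (17.7%), 3 of 7 at 18 h (15.9%), 4 of 7 at 24 h (9.51%) and 3 of 7 at 96 h (10.9%). The background was highest at 12 h, where 2 members were called, and the members' count was highest at 24 h. The median log2 fold change of the members was 0.84 at 3 h, -1.12 at 18 h and -1.46 at 24 h, where that of all genes tested was 0, and 0.23 at 96 h, where that of all genes was 0.07. At 24 h both samples lay outside the range of the 0 h samples for 7 of 7 members, as they did for 48.8% of all genes in either direction. They lay above it for Adamts12 and below it for the other members, with 2 samples at each time. Relative counts in bulk RNA cannot tell fewer cells of a type apart from less of a transcript per cell.

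**Figure D1:**
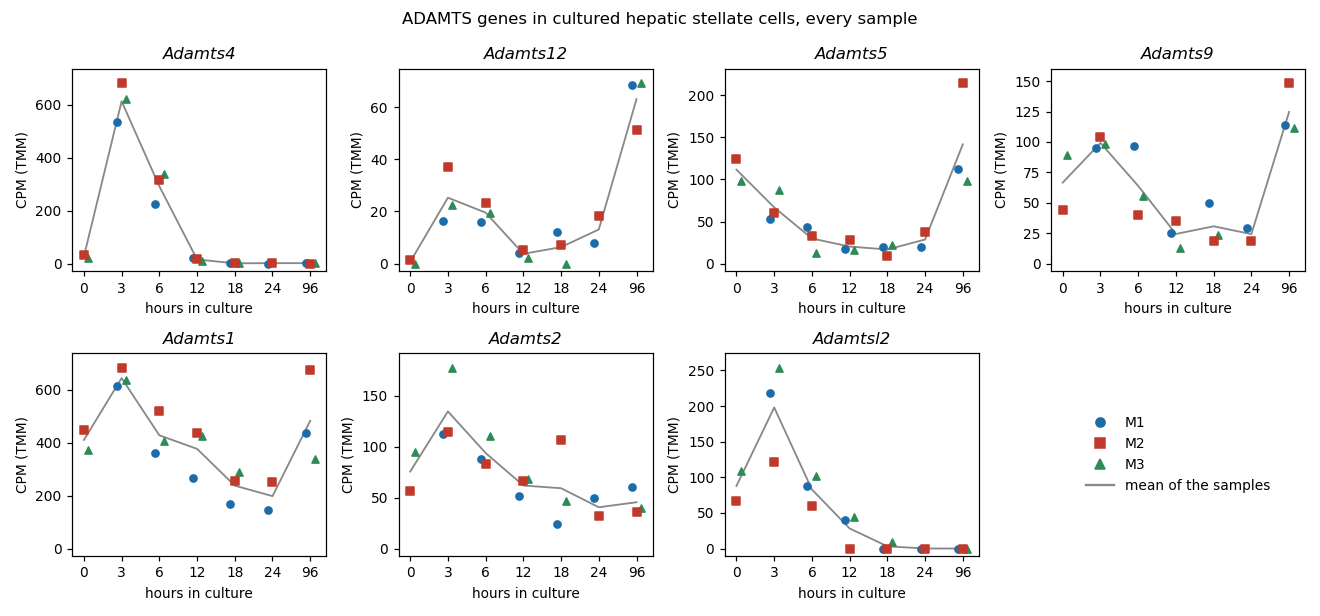
Level of each of the 7 ADAMTS genes in every sample, in CPM after TMM scaling (y axis, each from 0 on its own scale), at 0, 3, 6, 12, 18, 24 and 96 h of culture (x axis, evenly spaced, not to scale). Symbols mark the M number and the line joins the means of 2 or 3 samples; Adamts4 stands at 534 to 682 CPM at 3 h and at 3.6 CPM or less from 18 h on.

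Adamts4, an aggrecanase and versicanase known to be induced by inflammatory signals, rose within 3 h and had fallen again by 12 h. It stood at 33.1 and 20.1 CPM in M2 and M3 at 0 h and at 534, 682 and 623 CPM in M1, M2 and M3 at 3 h. At 6 h the samples held 225, 314 and 338 CPM. All 6 early culture samples thus lay above both fresh samples, and the log2 fold change was 4.52 ± 0.92 (SE) at 3 h (edgeR adjusted p = 0.00808) and 3.45 ± 0.87 at 6 h (adjusted p = 0.0184). The 10 Kupffer cell and leukocyte markers summed to 398 to 403 CPM at 0 h, 198 to 431 CPM at 3 h and 24.6 to 60.3 CPM at 6 h, where 4 of 10 had reads. Their part in the Adamts4 values was not tested. Within M2 the log2 difference of 3 h from 0 h was 4.35, and within M3 it was 4.93.

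The Adamts4 rise was over by 12 h. The 12 h samples held 19.7, 17.3 and 10.4 CPM, below each 0 h sample, but the difference from 0 h was not called (log2 fold change -0.77 ± 0.76, adjusted p = 0.563). Between 6 and 12 h the level fell by 4.21 ± 0.76 on the log2 scale (adjusted p = 0.00887), the 1 member call of that step (1.84% of all genes tested). At 18 h it was at 0.975, 0.702 and 1.68 CPM, 4 to 9 reads a library. The 24 h samples stood at 0 and 3.6 CPM in M1 and M2, and the 96 h samples at 2.58, 0 and 2.86 CPM. Late culture thus lay below every fresh sample. The log2 fold changes against 0 h were -4.55 ± 0.89 at 18 h (adjusted p = 0.00242), -3.75 ± 0.97 at 24 h (adjusted p = 0.0234) and -3.88 ± 0.86 at 96 h (adjusted p = 0.0078). The further drop from 12 to 18 h (log2 fold change -3.78 ± 0.84, adjusted p = 0.126) was not called.

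With 2 samples at 0 h, single libraries decided some Adamts4 calls. Without the 0 h sample of M3 the adjusted p was 0.115 at 3 h and 0.176 at 6 h, and without that of M2 it was 0.1 at 6 h and 0.111 at 24 h. The 24 h call also ended without the 24 h sample of M1 (adjusted p = 0.13). The gene lies at chr1:171250421-171260637 on the plus strand of GRCm38.

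Adamts12 went the other way in late culture and ended at its highest level. The sample of M2 at 0 h held 1.25 CPM (5 reads) and that of M3 held 0 of 2073171 counts, which allows up to 1.51 CPM. At 3 h the samples held 16.3, 36.9 and 22.7 CPM, and at 6 h 16.02, 23.3 and 19.4 CPM. After lower values of 4.17, 5.09 and 2.00 CPM at 12 h, and of 11.9, 7.02 and 0 CPM at 18 h, it was at 7.94 and 18.3 CPM at 24 h in M1 and M2. The 96 h samples, at 68.5, 51.4 and 69.2 CPM, were the highest of all 19.

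Adamts12 was called higher than at 0 h at 3 h (log2 fold change 5.13 ± 1.60, adjusted p = 0.0939), at 6 h (4.76 ± 1.58, adjusted p = 0.0753) and at 96 h (6.45 ± 1.70, adjusted p = 0.0242). Since the fresh mean of 0.627 CPM is under the floor, these folds are poorly set: without the 0 h sample of M3 or of M2 they were 3.91 and 9.58 at 6 h and 5.63 and 11.27 at 96 h, the higher values resting on a fresh level of 0. The samples at 12 h were lower than those at 6 h without overlap, but that step was not called (-2.38 ± 1.15, adjusted p = 0.409). From 12 to 96 h it rose by 4.06 ± 1.24 (adjusted p = 0.0457). The rise at 3 h was the least stable call of the family, kept under 7 of 27 alternatives. With the M number as a block, its adjusted p was 0.1, and it was not kept without any 1 of the 0, 3, 6, 24 or 96 h samples, the 12 h samples of M1 or M2 or the 18 h sample of M2 (adjusted p up to 0.418). The call at 6 h ended without either 0 h sample (adjusted p = 0.328 and 0.103 without M3 and M2), the 6 h samples of M2 or M3 (0.112 and 0.108) or the 96 h samples of M1 or M3 (0.104 each). At 96 h it ended without the 0 h sample of M3 (adjusted p = 0.162), and from 12 to 96 h without any 1 of the 12 h samples (0.107 to 0.146) or the 96 h sample of M3 (0.103). The test across all times (adjusted p = 0.0387) was lost without the 96 h samples of M1 or M3 (0.1 and 0.103). Adamts12 lies at chr15:11064790-11349231 on the plus strand.

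Adamts5, the main aggrecanase of cartilage, fell within 6 h and was back near its fresh level at 96 h. The 0 h samples held 125 and 98.4 CPM in M2 and M3, and the 3 h samples 52.4, 59.9 and 88.0 CPM. The 6 h samples were at 43.9, 32.6 and 12.97 CPM, those at 12 h at 16.9, 27.98 and 15.9 CPM and those at 18 h at 19.7, 8.77 and 21.8 CPM. No sample between 3 and 24 h reached the lower of the fresh samples. At 24 h it held 20.2 and 37.0 CPM in M1 and M2, and at 96 h 112, 214 and 98.5 CPM, which overlaps the fresh range.

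The step from 0 to 3 h was not called for Adamts5 (log2 fold change -0.74 ± 0.53, adjusted p = 0.546). It was lower at 6 h (-1.91 ± 0.53, adjusted p = 0.0325), at 12 h (-2.46 ± 0.54, adjusted p = 0.00491), at 18 h (-2.73 ± 0.54, adjusted p = 0.00263) and at 24 h (-1.96 ± 0.61, adjusted p = 0.0635). From 12 to 96 h it rose by 2.80 ± 0.51 (adjusted p = 0.00154) and from 24 to 96 h by 2.31 ± 0.59 (adjusted p = 0.0557). At 96 h it stood 0.34 ± 0.54 from 0 h (adjusted p = 0.802). The calls at 12 h, at 18 h and from 12 to 96 h were kept under all 27 alternatives. At 6 h the call ended without the 0 h sample of M2 (adjusted p = 0.176) or the 6 h sample of M3 (0.102). The 24 h call was lost without any 1 of the 4 samples it compares (adjusted p = 0.119 to 0.401), and the rise from 24 to 96 h without either 24 h sample (0.432 and 0.245) or the 96 h sample of M2 (0.176).

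Adamts9, a versicanase that also has roles in secretion and at the base of cilia, shared the late return. It held 43.9 and 89.4 CPM at 0 h in M2 and M3, and 95.2, 104 and 98.2 CPM at 3 h. The 6 h samples spread from 39.6 to 96.4 CPM. Later values were 25.02, 35.3 and 12.8 CPM at 12 h, 49.96, 18.4 and 23.6 CPM at 18 h and 29.6 and 18.9 CPM at 24 h in M1 and M2. At 96 h they were 114, 148 and 112 CPM, above every sample at any other time.

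Adamts9 was called lower at 12 h (log2 fold change -1.45 ± 0.51, adjusted p = 0.0701), whereas 24 h, with a like mean, was not called (-1.46 ± 0.57, adjusted p = 0.165). The rise from 12 to 96 h was 2.35 ± 0.48 (adjusted p = 0.0036), kept under all 27 alternatives, and that from 24 to 96 h was 2.36 ± 0.56 (adjusted p = 0.0387). Against 0 h the 96 h level was not called (0.91 ± 0.52, adjusted p = 0.339), and the log2 difference was 1.75 within M2 and 0.32 within M3. The 12 h call ended without the 0 h sample of M3 (log2 fold change -0.87, adjusted p = 0.488) or the 12 h samples of M1 or M3 (adjusted p = 0.129 and 0.203), and the rise from 24 h without either 24 h sample (0.146 and 0.505).

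Adamts9 lies at chr6:92772699-92943492 on the minus strand and overlaps genes of the other strand. One of them, A730049H05Rik, was at 0 in all samples up to 24 h and at 18.4 to 34.1 CPM at 96 h. Another, 9530026P05Rik, had means of 14.2, 23.1 and 5.65 CPM at 0, 3 and 6 h and of 0.32 CPM or less from 12 h on. Whether the counting used strand is not given in the sources used here, and without it reads of Adamts9 and these genes could not be told apart.

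Adamts1, an inducible versicanase, had the smallest ratio of highest to lowest mean among the members, 3.25, between 3 h and 24 h. The fresh samples stood at 449 and 373 CPM in M2 and M3, and the 3 h samples, at 614, 683 and 637 CPM, lay above them (log2 fold change 0.65 ± 0.32, adjusted p = 0.364, not called). At 6 h they held 361, 519 and 405 CPM and at 12 h 268, 437 and 427 CPM. The 18 h samples, at 169, 256 and 289 CPM, and the 24 h samples, at 145 and 252 CPM in M1 and M2, were all below the fresh ones. By 96 h the values were 437, 675 and 337 CPM, around the fresh range.

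Compared with fresh cells, Adamts1 had a log2 fold change of -1.05 ± 0.35 at 24 h (adjusted p = 0.0912, called), and its values of -0.79 ± 0.31 at 18 h (adjusted p = 0.123) and 0.23 ± 0.32 at 96 h (adjusted p = 0.758) were not called. It rose by 1.29 ± 0.33 from 24 to 96 h (adjusted p = 0.0607). In a fit blocked by M number the 24 h log2 fold change was -0.95 (adjusted p = 0.0471), a fold change under 2. The 24 h call was kept under 14 of 27 alternatives, with log2 fold changes from -1.50 to -0.71 when single libraries were left out. It ended without either 0 h sample, the 24 h sample of M1, any 1 of the 3 h samples, the 6 or 12 h sample of M3, or the 96 h sample of M1 (adjusted p up to 0.505). The rise from 24 h was lost without either 24 h sample (adjusted p = 0.488 and 0.108) or the 96 h sample of M2 (0.203). Adamts1 (chr16:85793827-85803113) and Adamts5 (chr16:85856173-85901828) are neighbours on the minus strand, 53.1 kb apart, and across the 19 samples their log2 levels had a Pearson r of 0.565.

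Adamts2, the procollagen N-proteinase, was called in none of its 12 comparisons by edgeR, and none had an unadjusted p below 0.05. It stood at 56.7 and 94.4 CPM at 0 h in M2 and M3, and at 112, 114 and 177 CPM at 3 h (log2 fold change 0.84 ± 0.50, adjusted p = 0.46). The 6 h samples held 83.3 to 110.2 CPM and those at 12 h 51.7 to 67.9 CPM. At 18 h the samples differed most, at 24.1, 107 and 46.6 CPM. At 24 h it was at 49.1 and 31.9 CPM in M1 and M2 (-0.90 ± 0.54, adjusted p = 0.382) and at 96 h at 60.8, 35.6 and 39.9 CPM (-0.73 ± 0.48, adjusted p = 0.404). Only the test across all times passed (adjusted p = 0.0751), and it ended without any 1 of the 3 h, 24 h or 96 h samples other than that of M1 at 96 h, the 6 h sample of M3 or the 12 h sample of M2 (adjusted p = 0.101 to 0.194). It also ended with the M number as a block (adjusted p = 0.15), the isolation date as a covariate (0.103) and scaling by library size only (0.17). Adamts2 lies at chr11:50602084-50807573 on the plus strand.

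Adamtsl2, the member without a catalytic domain, was lost from the cultures. The fresh samples held 67.2 and 108 CPM in M2 and M3, the 3 h samples 219, 122 and 254 CPM and the 6 h samples 87.8, 59.1 and 102 CPM. The higher values at 3 h did not pass the test (log2 fold change 1.17 ± 1.63, adjusted p = 0.839). At 12 h M1 and M3 still held 39.8 and 44.7 CPM and M2 held 0 (-1.64 ± 1.56, adjusted p = 0.544). Of the 18 h samples only that of M3 had reads (9.31 CPM), and all 5 samples at 24 and 96 h were at 0.

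Against 0 h, Adamtsl2 was called lower at 18 h (log2 fold change -4.79 ± 1.73, adjusted p = 0.0953, a size set by the 1 sample with reads and -11.72 without it), at 24 h (at least 136.5-fold lower, taken against the floor of 3 counts in the shallower library, adjusted p = 0.0414) and at 96 h (at least 102-fold lower, adjusted p = 0.0158). From 12 to 96 h it was at least 32.8-fold lower (adjusted p = 0.027), though the 12 h sample of M2 was also at 0. The 96 h call was kept under all 27 alternatives. That at 18 h was kept under 10 of 27, and ended without any 1 of the 0, 3, 6 or 24 h samples, the 12 h samples of M1 or M3 or the 18 h samples of M1 or M2 (adjusted p up to 0.222). The 24 h call ended without either of its 24 h samples (adjusted p = 0.2 and 0.256). The 10 sinusoidal endothelial markers summed to 777 to 1139 CPM at 0 h, 920 to 2980 CPM at 3 h, 241 to 891 CPM at 6 h, 126 to 663 CPM at 12 h, 181 to 558 CPM at 18 h, 167 to 501 CPM at 24 h and 13.1 to 231 CPM at 96 h. Stab2 had means of 83.2 CPM at 0 h and 312 CPM at 3 h and was at 0 at 96 h. Cdh5 had means of 34.4 CPM at 0 h and 154 CPM at 24 h, where Adamtsl2 was at 0, and Lyve1 was at 0 at 0 h as well as at 96 h. Sums of other markers fell as well. From 0 to 24 h the 10 HSC markers went from 30570 to 35330 CPM down to 2065 to 2133 CPM. The 10 hepatocyte markers went from 3706 to 7890 CPM down to 43.8 to 82.5 CPM. Those of Kupffer cells and leukocytes went from 398 to 403 CPM down to 14.9 to 36.7 CPM. The part of any of these cells in the Adamtsl2 values was not tested. Adamtsl2 lies at chr2:27079379-27108981 on the plus strand.

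**Figure D2:**
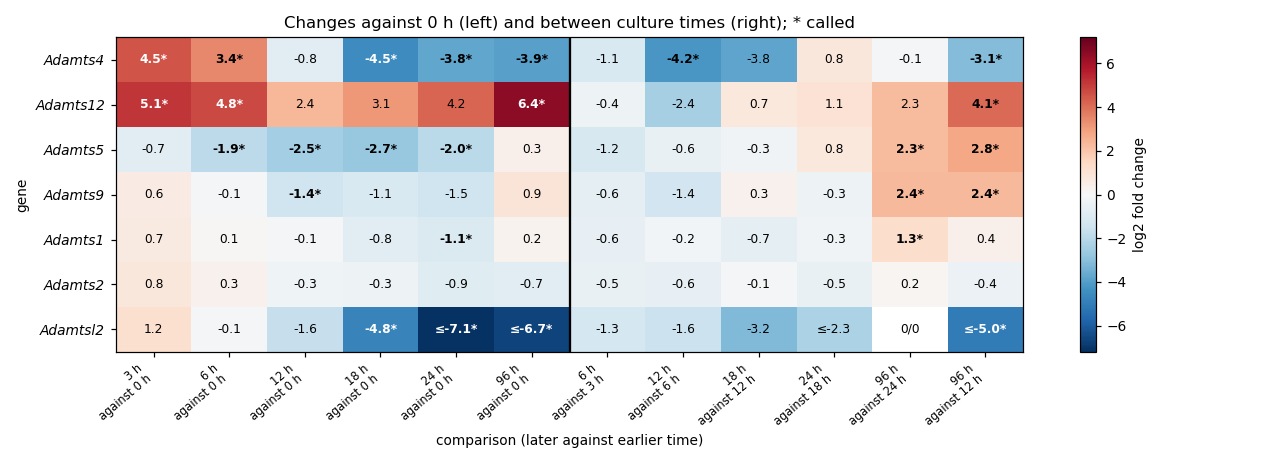
Fold changes of the 7 ADAMTS genes (rows) on the log2 scale, in colour and in print, for 6 comparisons with 0 h and 6 between culture times (columns), from the edgeR fit of all samples. An asterisk marks the 26 called values, ≤ a bound where every later sample was at 0, and 0/0 times at 0 on both sides; Adamts5 and Adamts9 turn from lower than 0 h at 12 h to higher at 96 h than at 12 h.

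Between culture times, 9 of 42 member tests were called, 6 higher and 3 lower. From 24 to 96 h 3 of 7 members were called, Adamts1, Adamts5 and Adamts9, all higher (2.72% of all genes tested, 1.37% higher), and from 12 to 96 h 5 of 7 (13.5%), 3 higher (6.96%) and 2 lower (6.57%). No member was called by edgeR from 3 to 6 h (4.49% of all genes tested), from 12 to 18 h (0.225%) or from 18 to 24 h (0.0396%). At an unadjusted p below 0.05 these steps had 1, 2 and 1 members, and DESeq2 called 1, 1 and 0. In all, 6 of 7 members were called in at least 1 of these 6 comparisons, beside 16.5% of all genes tested. The 0 h samples are not compared in them, though they enter the fit, whereas the 6 comparisons with 0 h share both.

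Ordered by mean level, the times at the top were 3 h for Adamts1, Adamts2, Adamts4 and Adamtsl2 and 96 h for Adamts5, Adamts9 and Adamts12. Neighbours in the order that lay further apart than the larger of their SDs were rare for Adamts1 (12 above 18 h) and Adamts2 (3 above 6 h). Adamts4 had 4 such steps out of 6: 3 above 6 h, 6 above 0 h, 0 above 12 h and 12 above 96 h. For Adamts5, 0 h lay above 3 h and 3 above 6 h, while 96 and 0 h, at means of 142 ± 63.4 CPM (SD, n = 3) and 112 ± 18.5 CPM (SD, n = 2), did not separate. In Adamts9, 96 h lay above 3 h, 3 above 0 h and 6 above 18 h. For Adamts12, 96 h lay above 3 h (63.1 ± 10.1 and 25.3 ± 10.6 CPM, SD, n = 3 each) and 12 above 0 h. For Adamtsl2, 3 h lay above 0 h, 6 above 12 h and 12 above 18 h. Scaling by library size alone kept the top time of each member, but not every step. Adamts9 then kept only 96 above 3 h, and Adamts2 had 12 above 96 h in place of 3 above 6 h. Adamts4 had 12 above 24 h in place of 12 above 96 h, and Adamts5 had 3 above 24 h in place of 3 above 6 h.

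Across the 19 samples the log2 levels of Adamts4 and Adamtsl2 had a Pearson r of 0.85, those of Adamts5 and Adamts9 of 0.765 and those of Adamts2 and Adamts4 of 0.745. Adamts12 had r of 0.504 with Adamts9 and of -0.26 with Adamtsl2. Of 8581 genes with a mean of 10 CPM or more, those most like Adamts4 were Gbp2b (r = 0.944), Ifnar2 (0.933) and Fcna (0.929), and those most like Adamtsl2 were the complement genes C4b (0.941) and C1ra (0.922) and the endothelial receptor gene Stab2 (0.926). Adamts5 was most like Ppp3ca (0.924), St3gal5 (0.914) and Mylk (0.906), and Adamts9 most like Mfge8 (0.923), Rapgef5 (0.902) and Rock1 (0.882). The closest genes were Rprd1a (0.842), Trp53inp2 (0.818) and Ing2 (0.817) for Adamts1, Fam49a (0.862), Acsl5 (0.853) and Gbp2b (0.824) for Adamts2, and Tssc4 (0.843), Cacul1 (0.818) and Tram2 (0.815) for Adamts12. With a prior count of 0.5 in place of 2, Rsrc2 came first for Adamts4 and Fcna left its top 3, Mup7 replaced C1ra for Adamtsl2, and Abl2 entered for Adamts12 in place of Tram2. These points share time, M number and depth, and the values describe a likeness of pattern.

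Promoters of 5 members were in the RefSeq table of GRCm38.p6, and they differed in CpG content. In the 250 bases before the start, Adamts2 held 34 CpG, more than 96.5% of the 32851 promoters in the table, Adamts9 held 22 and Adamts1 15, whereas Adamtsl2 held 8 and Adamts12 6, the median of all promoters. Adamts2 was the member with no call in any pairwise comparison, and Adamtsl2 and Adamts12 ran from or to 0 in some library. Adamts9 and Adamts1 were both called. Adamts4, which also ran to 0 in some library, and Adamts5 had no promoter in the table. With 5 promoters this is a description. The 3 sequences are shown 5′ to 3′ on the plus strand, with CpG in capitals, for Adamts2 at chr11:50601835-50602084, Adamtsl2 at chr2:27079129-27079378 and Adamts12 at chr15:11064523-11064772.
Adamts2: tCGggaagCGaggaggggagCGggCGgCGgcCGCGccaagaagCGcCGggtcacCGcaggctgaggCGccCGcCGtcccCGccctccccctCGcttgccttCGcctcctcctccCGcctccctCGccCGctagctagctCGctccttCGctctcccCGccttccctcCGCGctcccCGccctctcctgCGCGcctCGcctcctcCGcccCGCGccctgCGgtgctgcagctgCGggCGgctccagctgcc
Adamtsl2: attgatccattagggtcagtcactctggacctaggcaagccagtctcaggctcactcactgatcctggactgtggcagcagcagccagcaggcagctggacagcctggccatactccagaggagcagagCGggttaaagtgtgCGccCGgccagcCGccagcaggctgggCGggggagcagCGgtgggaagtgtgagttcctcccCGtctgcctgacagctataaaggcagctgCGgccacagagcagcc
Adamts12: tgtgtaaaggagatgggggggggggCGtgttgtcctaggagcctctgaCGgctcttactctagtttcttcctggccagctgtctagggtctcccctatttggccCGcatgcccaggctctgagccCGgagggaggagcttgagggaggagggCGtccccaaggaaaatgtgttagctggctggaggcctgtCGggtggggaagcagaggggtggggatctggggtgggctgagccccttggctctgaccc
None of the 5 held AP-1 (TGANTCA), TEAD (CATTCC) or E-box (CACGTG) letters on either strand within 300 bases, from 250 before to 50 after the start; 7.81%, 14.7% and 7.15% of all promoters did. This says only that the letters are not in that window.

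Of the other 19 genes of the family, 13 passed the filter, and their calls against 0 h were all lower. The 12 h comparison gave 2 of 13 (17.7% of all genes tested, either direction) and the 18 h comparison 2 of 13 (15.9%). Later, 24 h gave 1 of 13 (9.51%) and 96 h gave 1 of 13 (10.9%). The 3 h and 6 h comparisons gave none (5.58% and 11.3%). The shares of all genes join both directions, and whether the counts differ from them was not tested. Adamts13, which cuts von Willebrand factor and is made in the liver by HSCs, had 116 and 94.4 CPM at 0 h in M2 and M3 and 114, 134 and 103 CPM at 3 h. It was at 0 in both 24 h and all 3 96 h samples, at least 164-fold (adjusted p = 0.0673) and at least 122.5-fold lower (adjusted p = 0.0266). Adamts10, a protease of fibrillin microfibrils, went from 180.0 and 117 CPM at 0 h to 3.24, 0 and 0 CPM at 12 h (log2 fold change -7.14 ± 2.30, adjusted p = 0.0543), was at least 203-fold lower at 18 h (adjusted p = 0.0146), and held 17.4 to 22.9 CPM at 96 h. Adamtsl4, which also binds microfibrils, had means of 75.9 CPM at 0 h and 0 at 18 h (at least 104-fold lower, adjusted p = 0.0147). Adamtsl5 was at 0 at 12 h (at least 22.03-fold lower, adjusted p = 0.0625) and at 13.7 to 26.95 CPM at 96 h, at least 28.4-fold above 12 h (adjusted p = 0.063).

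**Figure D3:**
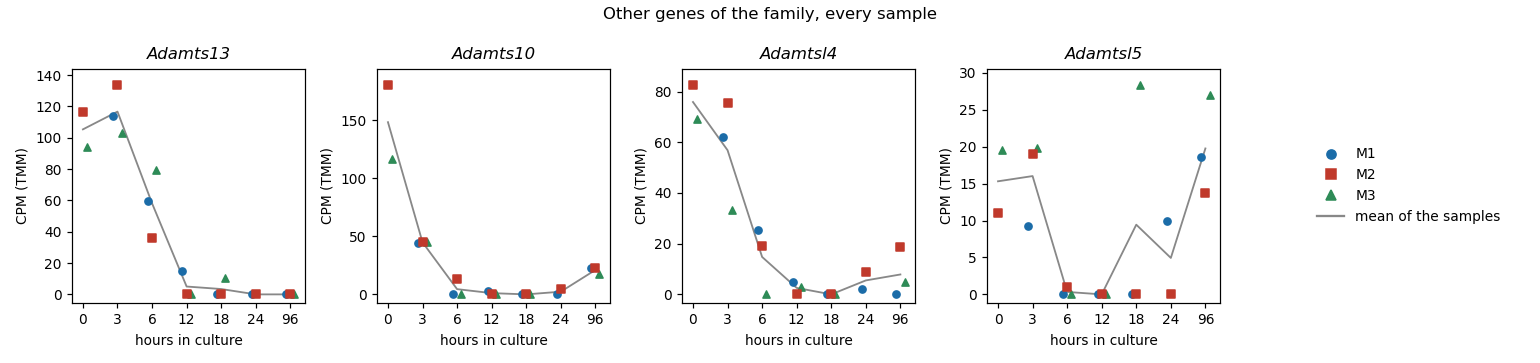
Level in CPM after TMM scaling (y axis) of the 4 other family genes called in any comparison with 0 h, in every sample at each time (x axis, evenly spaced). Symbols mark the M number and lines join the means; Adamts13 is at 0 in all samples at 24 and 96 h, while Adamts10 and Adamtsl5 have reads again at 96 h.

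The inhibitors, substrates and processing partners of these enzymes were listed as 49 genes, 35 of which passed the filter. Against 0 h, 4 were called at 3 h, all higher (5.58% of all genes tested were called in either direction). At 6 h 4 were higher and 4 lower (11.3%), at 12 h 3 and 14 (17.7%), at 18 h 4 and 17 (15.9%), at 24 h 4 and 11 (9.51%) and at 96 h 7 and 5 (10.9%). These shares join both directions, so the splits against 0 h have no share of their own beside them. From 12 to 96 h, 13 rose (6.96% of all genes tested) and 3 fell (6.57%). Their median log2 fold change was -1.76 at 12 h and 1.42 from 12 to 96 h, where those of all genes were 0 and 0.09. The 2 genes of thrombospondin repeat glycosylation, Pofut2 and B3glct, were called in no comparison with 0 h.

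Timp3, the matrix-bound inhibitor of Adamts4 and Adamts5, was called higher than at 0 h from 6 h on. Its 3 h samples already lay above both fresh samples. It held 18.6 and 346 CPM at 0 h in M2 and M3, 651 to 816 CPM at 3 h and 1587 to 2060 CPM at 6 h (log2 fold change 3.38 ± 0.76, adjusted p = 0.00866). The peak was at 3261, 5717 and 6043 CPM at 12 h in M1, M2 and M3 and 3530, 5693 and 6162 CPM at 18 h (log2 fold changes 4.79 ± 0.82, adjusted p = 0.000728, and 4.82 ± 0.82, adjusted p = 0.000785). At 96 h it was at 1387 to 1578 CPM, above 0 h (3.05 ± 0.75, adjusted p = 0.0159) and below 12 h (-1.74 ± 0.60, adjusted p = 0.0804). The last call ended without any 1 of the 3 h or 96 h samples or the 12 h samples of M2 or M3 (adjusted p = 0.1 to 0.193). Timp1 was highest at 96 h, at 165, 170 and 264 CPM after 6.77 and 13.6 CPM at 0 h (4.31 ± 1.30, adjusted p = 0.0505).

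Vcan, the versican gene and a shared substrate of Adamts1, Adamts4, Adamts5 and Adamts9, was at 0 in both fresh samples and was called higher at every culture time, although the 6 h sample of M1 was also at 0. It held 2.88 to 7.62 CPM at 3 h, 11.9 to 27.1 CPM at 12 h and 46.1 and 48.2 CPM at 24 h (at least 31.3-fold higher, adjusted p = 0.00877). At 96 h it was at 21.6 to 37.6 CPM (at least 19.7-fold higher, adjusted p = 0.0108). Thbs1, the thrombospondin 1 gene and a substrate of Adamts1, peaked at a mean of 446 CPM at 12 h after 31.9 CPM at 0 h (3.80 ± 0.51, adjusted p = 7.96e-05).

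Of the fibrillar procollagen genes, whose kind of product Adamts2 processes, Col1a1, Col1a2, Col3a1 and Col5a1 were lower at 12 h and rose from there to 96 h, while Col5a2 was called lower at no time. Col1a1 fell from 161 and 447 CPM at 0 h to 52.1, 87.5 and 85.5 CPM at 12 h (-2.02 ± 0.36, adjusted p = 0.00104) and reached 1570, 1163 and 1502 CPM at 96 h (2.21 ± 0.40 above 0 h, adjusted p = 0.0015). Col1a2 fell to means of 61.7 CPM at 12 h from 631 CPM (-3.35 ± 0.37, adjusted p = 1.24e-05), and Col3a1 to 179 from 1999 CPM (-3.48 ± 0.37, adjusted p = 6.47e-06). From 12 to 96 h Col1a1 rose by 4.23 ± 0.37 (adjusted p = 1.75e-06), Col1a2 by 2.90 ± 0.35 (adjusted p = 3.67e-05) and Col3a1 by 1.42 ± 0.32 (adjusted p = 0.00826), while the Adamts2 value over the same times was -0.45 ± 0.43 (adjusted p = 0.586). At 96 h Col3a1, at a mean of 480.0 CPM, was still below 0 h (-2.06 ± 0.35, adjusted p = 0.00104). Col5a2 had means of 193 CPM at 0 h, 373 CPM at 12 h and 892 CPM at 96 h and was called higher at 18, 24 and 96 h (2.21 ± 0.29 at 96 h, adjusted p = 9.42e-05). Of the microfibril genes that go with Adamtsl2, 6 of 9 passed the filter. Fbn1 and Mfap2 were lower at 12 h and Ltbp1 and Mfap2 at 18 h, while Ltbp4 was higher at 3 h and lower at 18, 24 and 96 h.

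**Figure D4:**
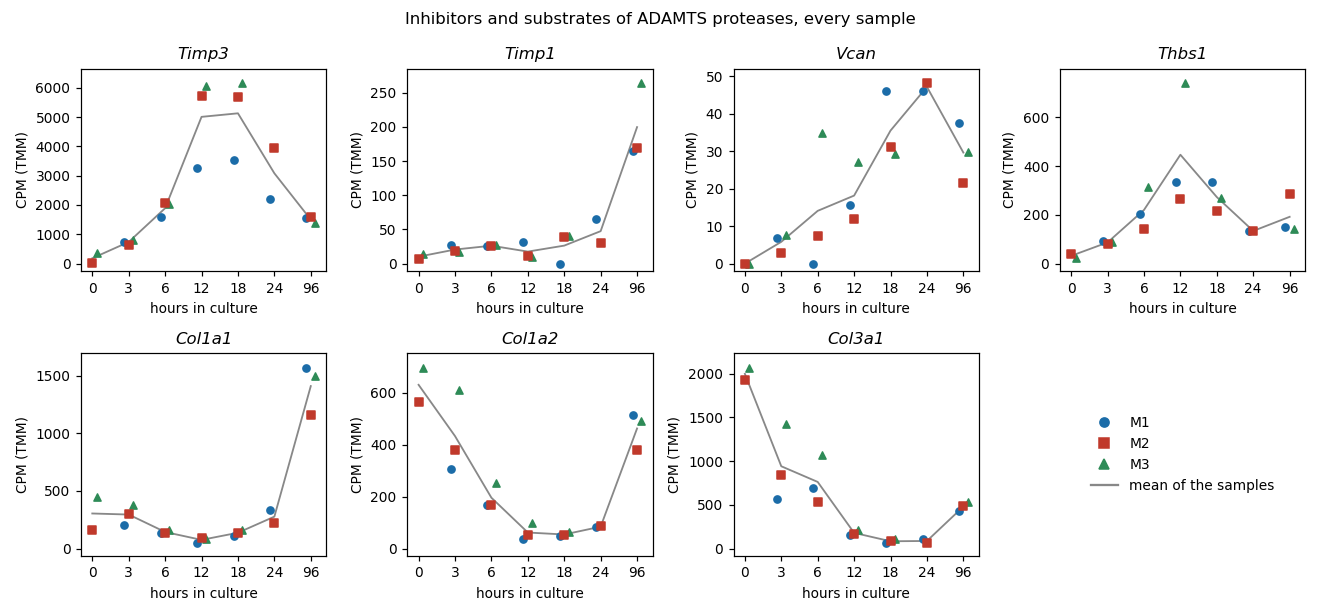
Level in CPM after TMM scaling (y axis, each on its own scale) of 2 inhibitors, the substrates versican and thrombospondin 1, and 3 procollagen genes in every sample at each time (x axis, evenly spaced). Symbols mark the M number and lines join the means; Timp3 is highest at 12 and 18 h, where the 3 procollagen genes shown are low, and Col1a1 is highest at 96 h.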

How the data were processed

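HSC RNA from 19 samples was sequenced from the 3′ end (QuantSeq FWD). The authors deposited unnormalized whole-number counts for each gene, made after mapping with STAR to mm10 (GRCm38) and assembly with StringTie, per the submitters' processing notes; the counting tool, annotation release and strand setting are not given in the sources used here. Groups, the numbers M1 to M3 and isolation dates came from the labels, where M1 and M3 share a date. Counts were filtered with filterByExpr, scaled by TMM and tested in 1 fit of all samples without covariates with edgeR 4.0.16 (R 4.3.3), Benjamini-Hochberg adjusted over the 15138 genes tested. SE is the log2 fold change divided by the square root of F. Log2 levels used a prior count of 2. The fold floor is that of the shallowest library of a group. p-values measure the spread between samples of 3 M numbers from 2 isolation dates. The study's own tool, DESeq2 (1.42.0), other scalings and filters, a block on the M number and leaving out single samples were alternatives. Named genes were the members, the 3 genes most like each, and called genes of the family and of the partner lists. Members and lists were chosen with earlier results of these data known. The pairing rests on the labels, where samples of the same M number carry the same isolation date; the residual correlation averaged 0.0143 in the 51 pairs that share a number and -0.0070 in the 103 that do not. Steps were tested on simulated data. Protein sequences were not used here. Plots used matplotlib 3.10.9.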

Additional observations from a re-analysis of the deposited data

Results flagged for a closer look

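The change from 0 h differed between culture times for 6 of the 7 members, beside 16.5% of all genes tested, by tests of the later against the earlier time in the edgeR fit of all samples. Between 6 and 12 h this held for Adamts4 (log2 fold change -4.21, lower in 3 of 3 samples). From 24 to 96 h it held for Adamts1 (1.29), Adamts5 (2.31) and Adamts9 (2.36), each higher in 3 of 3 samples at 96 h than in both samples at 24 h. From 12 to 96 h it held for Adamts5 (2.80), Adamts9 (2.35) and Adamts12 (4.06), all higher, and for Adamts4 (-3.12) and Adamtsl2 (at least 32.8-fold lower). Adamtsl2 was also at 0 in the 12 h sample of M2. The 3 differences from 24 to 96 h rest on 2 samples at 24 h.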

How the results depend on the processing

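Of the 26 member calls, DESeq2, the isolation date as a covariate and thinning to the smallest total kept 26, no filter 25, the block on the M number 24, library size only 22 and an adjusted p below 0.05 18; fits of only the groups compared kept 15 of the 25 they could give. None reversed. The block ended the calls of Adamts1 at 24 h (log2 fold change -0.95) and Adamts12 at 3 h (adjusted p = 0.1) and the test of Adamts2 across all times (0.15), and no other member call. Leaving out the 96 h sample of M2 turned the uncalled differences of Adamts1 (-0.085) and Adamts5 (-0.085) at 96 h against 0 h; without another single sample these went up to 0.44 and 0.55. Counts of members called became 1 at 12 h and 2 at 24 h with library size only; 6 at 18 h, 1 from 3 to 6 h, 2 from 6 to 12 h and 1 from 12 to 18 h with DESeq2; 1 at 3 h and 1 from 12 to 18 h without the filter; 1 at 3 h with the replicate block; and 1 from 12 to 18 h when thinned. At an adjusted p below 0.05 they were 1 at 3 h, 1 at 12 h, 2 at 24 h and 1 from 24 to 96 h, and with only the groups compared 1 at 3, 6 and 12 h each, 2 at 24 h, 2 from 3 to 6 h and 3 from 12 to 96 h. Smaller changes of these counts were left out of this list. Over these alternatives the counts ran from 1 to 3 at 6 h and from 2 to 6 at both 18 and 24 h. They ran from 2 to 3 at 96 h and from 1 to 3 from 24 to 96 h. The causes were not tested. Leaving out single samples gave 0 to 2 at 3 h, 0 to 3 at 6 h, 1 to 2 at 12 h, 2 to 4 at 18 h, 0 to 5 at 24 h, 2 to 3 at 96 h, 0 from 3 to 6 h, 1 from 6 to 12 h, 0 to 1 from 12 to 18 h, 0 from 18 to 24 h, 0 to 3 from 24 to 96 h, 4 to 5 from 12 to 96 h and 5 to 7 across all times. Where this left 1 sample at a time, its spread was taken as that of the other times.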
